A study of Mus musculus with 6 samples.

Results

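The TRIM genes (tripartite motif proteins) were followed in 4T1, a carcinoma line of the mouse mammary gland, after a nanoparticle and light treatment. The members were chosen by gene name alone, as protein-coding GENCODE M21 genes whose symbol is Trim followed by a digit, with Trim28 and Trim30a left out, which gave 66 of the 56748 genes in the files. The naming rule holds no measured threshold, but the family was selected with results of the treated against control comparison already known. All values from that comparison are therefore a description of these libraries, and the calls below are not independent evidence for the family. The 3 treated samples were cells given Au/MoS2/Bi2S3 particles at 125 µg/mL overnight, then lit with near-infrared light (NIR) during 8 min and kept for a further 24 h. The 3 control samples carry the label of the control group and no statement of what they received. Both groups are 4T1 cells of WT genotype, kept in DMEM with fetal bovine serum, and share 1 batch label. The labels say that RNA of 3 individuals was pooled without stating that replicates came from separate cultures, so a p-value here speaks for these 6 samples, and their spread may be technical alone. Particles alone and light alone were not analysed here, so that the parts of the treatment cannot be told apart.

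TRIM proteins share an N-terminal block made of a RING finger, which carries ubiquitin ligase activity, 1 or more B-boxes and a coiled coil through which they form dimers. The C-terminal domain sets the target and splits the family into classes, of which the PRY-SPRY class is the largest. Several members act in antiviral sensing by attaching ubiquitin to sensors or their adaptors, a number of them are interferon-induced, and others work in chromatin, on mRNA, on the cytoskeleton or in autophagy.

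Values are FPKM, fragments per kilobase of gene length scaled by a factor per library, as the authors deposited them. Their sum per library ran from 235757 to 241953 in treated and from 450409 to 532583 in control libraries, while the median gene tested was level, so each difference is relative to the typical gene. Working back from the steps of the values gave 33.2 to 33.8 M reads at genes in treated and 32.6 to 38.1 M in control libraries. For each such read, FPKM times gene length in bases was 22.3 to 22.6 in treated and 31.5 to 42.7 in control libraries. That factor did not follow the gene reads, which were 33.2 M in treated 3 (22.6) and 32.6 M in control 3 (42.7). The basis of the scaling was not given, and the factor enters every difference in FPKM between the groups. RNA of bulk cultures was measured, so fewer cells of a type and less RNA per cell cannot be told apart. Of the epithelial markers, Krt18 stood at 271.6 to 295.4 FPKM in treated and 754.5 to 973.1 FPKM in control libraries, and Epcam at 0.760 to 0.968 FPKM in treated and 4.43 to 5.74 FPKM in control libraries. Krt8 stood at 344.7 to 359.4 FPKM in treated and 467.9 to 493.0 FPKM in control libraries. Cdh1, the E-cadherin gene, was under 0.1 FPKM in all 6 libraries, so this defining epithelial marker was near absent. Among 6 immune markers Cd68 alone reached 1 FPKM, at 259.6, 241.5 and 245.0 FPKM in treated and 131.8, 444.1 and 76.96 FPKM in control libraries, while Ptprc stood at 0.00486 FPKM or less in every library. The summed fibroblast markers were between 1.74 and 1.91 FPKM in treated and between 1.75 and 2.53 FPKM in control libraries, with Dcn and Lum under 0.1 FPKM. Pdgfra stood at 1.183 to 1.265 FPKM in treated and 1.011 to 1.294 FPKM in control libraries. Pdgfrb stood at 0.5075 to 0.6865 FPKM in treated and 0.5296 to 1.168 FPKM in control libraries. The summed endothelial markers were between 1.17 and 1.73 FPKM in treated and between 0.744 and 1.16 FPKM in control libraries, with Kdr near 0. Most of that sum was Cdh5, at 1.033 to 1.461 FPKM in treated and 0.6995 to 1.005 FPKM in control libraries. Its groups did not overlap, but it was not called. The summed muscle markers were between 0.0768 and 0.121 FPKM in treated libraries and at most 0.00654 FPKM in control libraries, with Myod1, Myog and Ckm listed at 0 throughout. The part of these markers in the results was not tested.

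The sequences shown first are stretches of TRIM promoters that hold the core of the interferon-stimulated response element (ISRE). This motif was chosen with the members' values known, as several that stood higher after treatment are known interferon targets. Its share among the members is therefore a description, and a part of interferon in these values was not tested. The core, GAAA and again GAAA with any 2 bases between, was searched on both strands in the window from 250 bases before to 50 bases after each RefSeq start (GRCm38.p6). Of the 66 members 51 had a promoter in that table, and 8 of them held the core. That is 15.7% of the matched members and 12.5% of their 64 promoters, beside 3.44% of all 32851 promoters. Capitals mark the core as read on the gene's strand, where TTTC and TTTC is the same motif on the other strand. Positions count from 0 at the first transcribed base.
Trim21 (chr7:102565433-102565504, minus strand, cores from 13): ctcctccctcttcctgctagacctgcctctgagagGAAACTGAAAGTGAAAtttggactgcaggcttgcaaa
Trim34a (chr7:104244432-104244506, plus strand, core from 10): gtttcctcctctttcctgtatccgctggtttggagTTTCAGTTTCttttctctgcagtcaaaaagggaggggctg
Trim30d (chr7:104507846-104507925, minus strand, core from -41): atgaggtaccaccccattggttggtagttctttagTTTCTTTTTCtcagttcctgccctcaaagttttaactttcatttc
Trim12c (chr7:104353334-104353413, minus strand, core from -29): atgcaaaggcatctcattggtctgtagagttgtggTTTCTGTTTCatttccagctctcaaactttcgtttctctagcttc
Trim5 (chr7:104288111-104288190, minus strand, core from -49): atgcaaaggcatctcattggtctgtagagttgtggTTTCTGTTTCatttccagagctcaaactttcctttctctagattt
Trim12a (chr7:104315446-104315520, minus strand, core from 10): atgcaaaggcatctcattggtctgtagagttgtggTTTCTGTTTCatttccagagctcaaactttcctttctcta
Trim26 (chr17:36836951-36837036, plus strand, cores from -160): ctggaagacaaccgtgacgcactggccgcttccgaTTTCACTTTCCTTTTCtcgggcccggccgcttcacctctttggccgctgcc
Trim2 (chr3:84212789-84212845, minus strand, core from 28): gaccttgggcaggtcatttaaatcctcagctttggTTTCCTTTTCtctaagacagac
In Trim21 and Trim26 2 cores overlap. Trim2 has further promoters in that table, and the core was found only in the promoter shown. The stretches of Trim12c, Trim5 and Trim12a, which lie in 1 gene cluster, share the same letters from their first base to past the core. A match is a string of letters in a window and not a shown binding site. Trim25, Trim32 and Trim45 did not hold the core in this window. The antioxidant response element core, TGACNNNGC, was found in the promoters of 8 members (Trim2, Trim7, Trim15, Trim30b, Trim52, Trim59, Trim60 and Trim61), 14.1% of their promoters beside 12.4% of all. The heat shock element core, GAA, TTC and GAA with 2 bases between each, was found in 0 members beside 0.603% of all promoters. A window that lacks these letters says nothing more about the factor.

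By limma on log2(FPKM + 1), 17 of the 29 members that passed a filter of 1 FPKM in at least 3 libraries were called higher in treated cells and 5 lower, at an adjusted p under 0.05. The largest rises on that scale were those of Trim32, Trim25, Trim12c and Trim45, and the called falls were Trim46, Trim3, Trim27, Trim24 and Trim71. Among all 11118 genes tested, 27.9% were called higher and 28.3% lower, and the members' counts are to be set beside these shares. The median log2 fold change, treated over control, was 0.74 over the 29 members and -0.01 over all genes tested. These counts moved with the scaling. Under library totals alone, where the median of all genes tested stood at 0.81, 28 of 32 members were called higher and 0 lower, and 7641 of all genes higher and 699 lower against 3099 and 3141. With a minimum of 5 FPKM, 10 of 17 members were called higher and 3 lower. Percentages over all genes are not given for the alternatives, here or below. Counts under an alternative are therefore not to be read against the 27.9% and 28.3%.

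The filter favours genes that are high in either group. Trim12c, Trim45, Trim34a, Trim21, Trim14 and Trim30d reached 1 FPKM in the treated libraries and in no control library, so they passed only through the group where they are high. The other 23 tested members reached 1 FPKM in a library of both groups, and 11 of them were called higher, 5 lower and 7 neither. Of the 10224 tested genes of that kind, 23.6% were called higher and 28.8% lower. The median log2 fold change of those 23 members was 0.43, beside -0.07 over the 10224 genes. Scarce genes stood higher after treatment in the whole data set, with a median log2 fold change of 0.33 for tested genes under 5 FPKM and of -0.31 for those at 5 FPKM or more. For the members the same medians were 0.76 (14 genes) and 0.43 (15 genes).

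**Figure D1:**
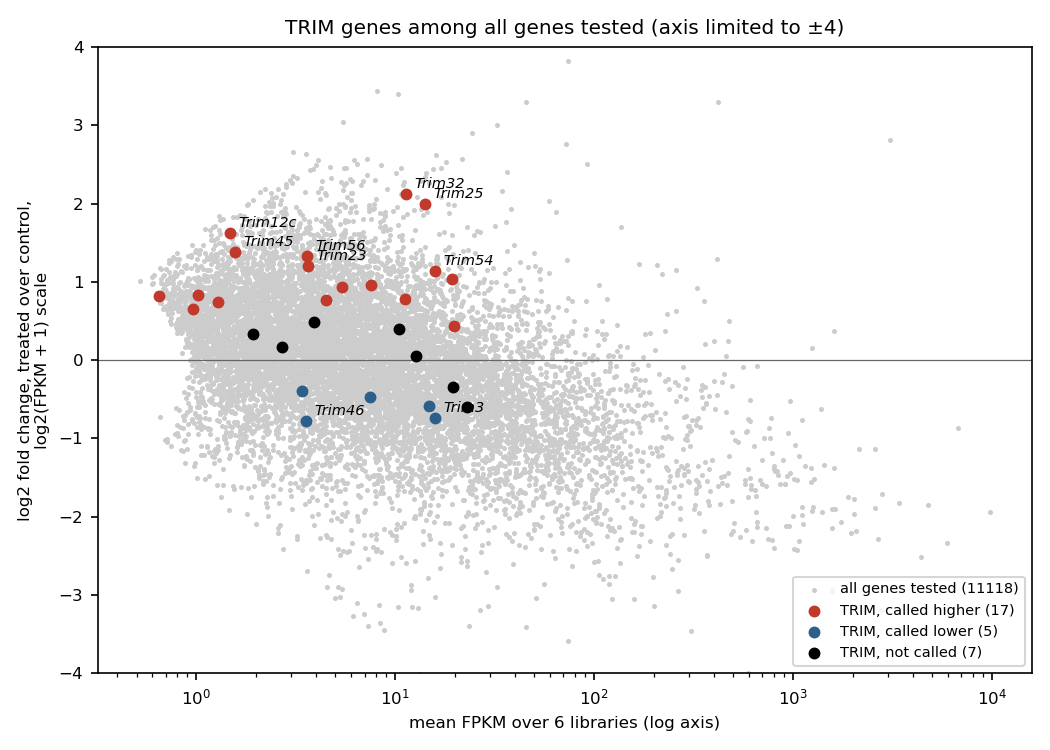
Log2 fold change (treated over control, log2(FPKM + 1) scale) against mean FPKM over 6 libraries (log axis), for all 11118 genes tested (grey) and the 29 tested TRIM genes (coloured by call), with 16 genes beyond ±4 not drawn. Trim32 and Trim25 stand at 2.12 and 2.00, and the TRIM means lie between 0.645 and 22.8 FPKM; with scaling by library total the blue points other than Trim46 turn positive.

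The family as a whole was a small share of the RNA. It took up 0.184%, 0.178% and 0.182% of gene reads in treated 1, 2 and 3, against 0.0778%, 0.0784% and 0.0796% in control 1, 2 and 3. Scaled by library totals of FPKM, the median of all genes tested also stood higher in treated libraries, as given above. A rise against the library total was therefore not particular to the family. The summed FPKM of the 66 members was 288.6, 281.7 and 285.8 in treated libraries, against 200.1, 196.6 and 240.0 in control libraries. The groups stood closer in FPKM than in reads, since each read was worth more FPKM in control libraries. At least 1 FPKM was reached by 29, 29 and 30 members in treated libraries, against 23, 23 and 22 in control libraries. Over protein-coding genes of the same annotation these shares were 44.5% to 44.6% in treated and 40.0% to 41.1% in control libraries. Replicates differed more among controls, with a median coefficient of variation over the 29 members of 4.72% in treated and 23.1% in control libraries. In 26 of the 29 the groups did not overlap. Every treated library lay above every control library for 19 members, beside 33.6% of all genes tested, and below for 7, beside 34.1%.

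**Figure D2:**
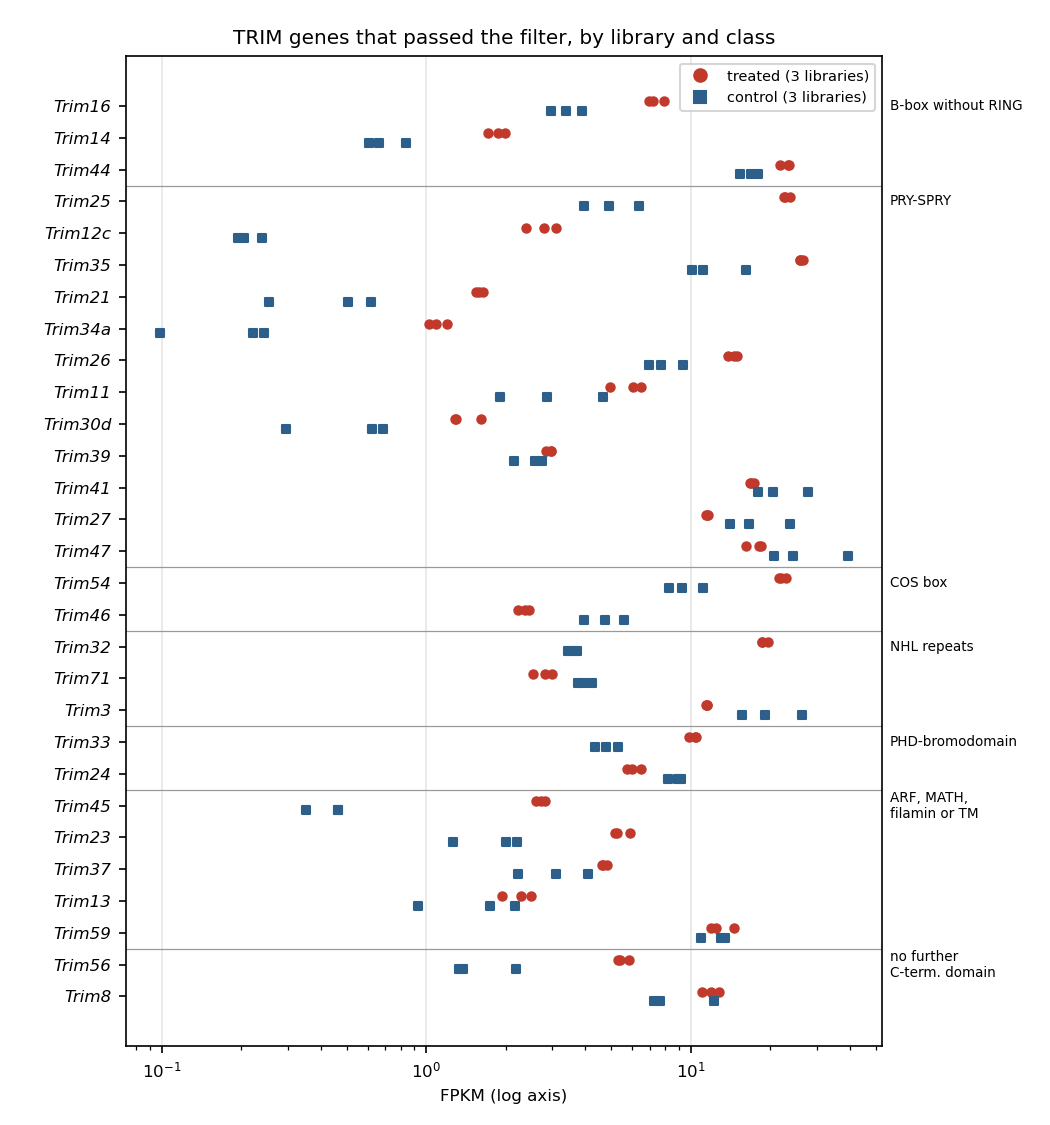
FPKM (log axis) of the 29 TRIM genes that passed the filter, 1 point per library (treated circles above control squares), grouped by C-terminal class. Treated points lie close together, at 18.6 to 19.7 FPKM for Trim32, while control points spread more widely, at 20.6 to 39.2 FPKM for Trim47.

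Trim32 (ENSMUSG00000051675, chromosome 4, 65604986 to 65616238, plus strand) had the largest log2 fold change of the tested members. It encodes an NHL-repeat ligase that is known for its mutations in human limb-girdle muscular dystrophy. It stood at 19.7, 18.6 and 18.6 FPKM in treated 1, 2 and 3, against 3.71, 3.45 and 3.63 FPKM in control 1, 2 and 3. The groups were far apart and both were tight, at 19.0 ± 0.602 FPKM in treated and 3.60 ± 0.136 FPKM in control cells (SD, n = 3 each), a 5.27-fold difference. Its log2 fold change was 2.12 ± 0.09 (SE), on at least 275 reads per library, and ran from 2.09 to 3.00 over 16 alternative settings.

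The other tested NHL genes went the opposite way, except that under scaling by library total only both turned positive. Trim3, whose protein is studied in neurons and glioma, stood at 11.5, 11.4 and 11.5 FPKM in treated libraries, against 19.1, 26.3 and 15.6 FPKM in control libraries. Its log2 fold change was -0.74 ± 0.19 (SE), the difference being 1.77-fold. Trim71, also known as Lin41, silences target mRNAs in stem cells and is itself a target of let-7. It stood at 2.81, 2.99 and 2.53 FPKM in treated libraries, against 4.25, 3.92 and 3.75 FPKM in control libraries. Neither gene's groups overlapped, but neither call held when any single treated library was left out. Trim2, which was under the filter, stood at 0.816, 0.733 and 0.674 FPKM in treated libraries, against 0.178, 0.133 and 0.324 FPKM in control libraries.

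Of the 35 PRY-SPRY members, 12 were tested, and 8 of these were called higher, 1 lower and 3 neither. Among the 8 called higher, 4 passed the filter only through the treated libraries (Trim12c, Trim34a, Trim21 and Trim30d). Over all genes tested, 27.9% were called higher and 28.3% lower. Trim25 (ENSMUSG00000000275, chromosome 11, 88999376 to 89020293, plus strand) encodes the ligase that ubiquitinates the RNA sensor RIG-I, and is an oestrogen-responsive gene in human breast cancer cells. It stood at 23.8, 22.5 and 22.6 FPKM in treated libraries, against 4.92, 6.39 and 3.96 FPKM in control libraries. Each treated library held more than 3 times the highest control value, and the means differed 4.51-fold, with a log2 fold change of 2.00 ± 0.16 (SE). Over the 16 alternatives this value ran from 1.70 to 2.89.

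Trim35, the most abundant of the class in treated cells, encodes a ligase first described in haematopoietic cells. It stood at 26.5, 25.9 and 26.0 FPKM in treated libraries, against 11.1, 10.1 and 16.1 FPKM in control libraries, and rose by 1.04 ± 0.18 (SE) on the log2 scale. Trim26, a ligase of antiviral signalling in the MHC region of chromosome 17, stood at 14.9, 13.9 and 14.6 FPKM in treated libraries, against 7.71, 6.98 and 9.36 FPKM in control libraries. Its log2 fold change was 0.79 ± 0.13 (SE). Trim11 was called higher with a limma adjusted p of 0.0404. It stood at 6.46, 6.06 and 4.97 FPKM in treated libraries, against 2.87, 1.89 and 4.66 FPKM in control libraries, a narrow gap between treated 3 and control 3. Its call was lost in 8 of the 15 alternatives that tested it, where the adjusted p reached 0.123.

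The PRY-SPRY genes of the antiviral type on chromosome 7 were scarce in control cells. Trim21 encodes a cytosolic antibody receptor that sends antibody-coated virus to the proteasome. It stood at 1.58, 1.54 and 1.64 FPKM in treated libraries, against 0.620, 0.255 and 0.506 FPKM in control libraries, and the means differed 3.45-fold. Its call was lost under quantile normalization and once GC content, length and level were corrected for, with log2 fold changes down to 0.27.

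A cluster of 9 members lies between 104218793 and 104507849 on chromosome 7 and holds the mouse relatives of human TRIM5, a factor that restricts retroviruses. Its 3 tested members, which all passed the filter only through the treated libraries, were called higher and 2 further members, Trim12a and Trim5, had every treated library above every control library. Trim12c stood at 2.37, 2.78 and 3.10 FPKM in treated libraries, against 0.239, 0.194 and 0.205 FPKM in control libraries, on 18 reads at the lowest. Its means differed 12.9-fold, the largest ratio among tested members, and its log2 fold change was 1.63 ± 0.10 (SE). Trim34a stood at 1.09, 1.02 and 1.19 FPKM in treated libraries, against 0.222, 0.243 and 0.0988 FPKM in control libraries, the last on 6 reads. Trim30d stood at 1.29, 1.29 and 1.61 FPKM in treated libraries, against 0.689, 0.621 and 0.295 FPKM in control libraries. Once GC content, length and level were corrected for, the log2 fold change of Trim30d was -0.05, and that of Trim34a 0.22.

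These cluster genes share sequence, which makes their single values uncertain. Trim34b shared 30.5% of the 100-base stretches of its transcripts with Trim34a, and stood at 0.144, 0.330 and 0.0244 FPKM in treated and 0, 0.119 and 0.231 FPKM in control libraries. For Trim12c 7.02% occur in Trim5, and for Trim30d 4.57% occur in Trim30a, a gene outside the member list. Trim5 stood at 0.332, 0.650 and 0.490 FPKM in treated libraries, against 0.147, 0.239 and 0.0116 FPKM in control libraries. Trim12a stood at 0.978, 0.916 and 1.08 FPKM in treated libraries, against 0.835, 0.529 and 0.731 FPKM in control libraries. The neighbour Trim6 overlapped between groups, at 0.973, 0.832 and 0.674 FPKM in treated and 0.705, 0.509 and 0.401 FPKM in control libraries, and Trim30b and Trim30c were at or near 0.

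The ISRE core was searched with the members' values known, so the levels of the 8 genes shown above are a description and nothing is read from their direction. Trim12c, Trim21, Trim30d and Trim34a passed the filter only through the treated libraries, Trim26 reached 1 FPKM in both groups, and Trim12a, Trim5 and Trim2 were under the filter. Of 20 tested genes in the interferon list 7 were called higher and 4 lower, with a median log2 fold change of 0.04. Over all genes tested, 27.9% were called higher and 28.3% lower. With scaling by library total only, 16 genes of the list were called higher and 0 lower. Once GC content, length and level were corrected for, 3 were called higher and 3 lower. Eif2ak2, an antiviral kinase gene, had the largest rise of that list, with 6.32, 5.91 and 5.84 FPKM in treated libraries against 3.21, 3.05 and 1.04 FPKM in control libraries. Irf1, a transcription factor gene, had the largest fall, with 7.70, 8.03 and 7.66 FPKM in treated libraries against 20.6, 22.05 and 17.5 FPKM in control libraries.

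Of the remaining tested PRY-SPRY genes 1 was called lower and 3 were not called. Trim27, which acts in retromer-dependent sorting, had a limma adjusted p of 0.040 and a log2 fold change of -0.58 ± 0.19 (SE), and 0.36 with scaling by library total only. It stood at 11.7, 11.4 and 11.5 FPKM in treated libraries, against 16.6, 14.1 and 23.7 FPKM in control libraries. Its call was lost in 9 of the 16 alternatives, among them each that left out control 1 or a treated library. Trim47, the member with the highest mean over all libraries, stood at 18.4, 18.1 and 16.2 FPKM in treated libraries, against 24.3, 20.6 and 39.2 FPKM in control libraries. Its groups did not overlap, but with 1 wide control group it was not called (limma adjusted p = 0.0737), except as lower without control 2 or without control 3. Trim39 stood at 2.83, 2.96 and 2.96 FPKM in treated libraries, against 2.59, 2.73 and 2.15 FPKM in control libraries. Every treated library was above every control library, but Trim39 was not called, at 0.17 ± 0.10 (SE) on the log2 scale. Trim41 was not called either, at -0.34 ± 0.17 (SE), and both changed sign under quantile normalization.

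Of the 4 members without a RING finger, 3 were tested. All 3 were called higher, but Trim14 passed the filter only through the treated libraries. Over all genes tested, 27.9% were called higher and 28.3% lower. Trim16, known for its part in clearing damaged lysosomes, stood at 7.94, 7.23 and 6.98 FPKM in treated libraries, against 3.37, 3.88 and 2.95 FPKM in control libraries. The groups did not overlap, and the log2 fold change was 0.93 ± 0.12 (SE). Trim44, which carries a zinc finger of the type found in deubiquitinases, was the most abundant of these. It stood at 23.6, 21.8 and 23.4 FPKM in treated libraries, against 15.3, 16.9 and 17.9 FPKM in control libraries. Its rise of 0.43 ± 0.11 (SE) on the log2 scale was not called without control 1 or without any single treated library. Trim14, an adaptor at the mitochondrial antiviral protein MAVS, stood at 1.98, 1.71 and 1.86 FPKM in treated libraries, against 0.8398, 0.662 and 0.610 FPKM in control libraries. Once GC content, length and level were corrected for, its log2 fold change was 0.31 and its call was lost (limma adjusted p = 0.0511). In its transcripts 27.7% of the 100-base stretches match the opposite strand of Nans, whose mean was 25.3 FPKM in treated and 85.04 FPKM in control libraries, so the value of Trim14 is uncertain where strand was not used in counting. Trim29 overlapped between groups, at 0.0782 to 0.263 FPKM in treated and 0 to 0.127 FPKM in control libraries.

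The chromatin-bound TIF1 members with a PHD finger and a bromodomain moved apart. Trim33, or TIF1 gamma, which acts on Smad4 in TGF-beta signalling, stood at 10.5, 9.86 and 10.4 FPKM in treated libraries, against 4.36, 4.77 and 5.31 FPKM in control libraries. It rose by 0.96 ± 0.11 (SE) on the log2 scale. Trim24, or TIF1 alpha, a coregulator of nuclear receptors and a ligase of p53, stood at 6.02, 5.74 and 6.47 FPKM in treated libraries, against 8.99, 9.20 and 8.21 FPKM in control libraries. Its log2 fold change was -0.47 ± 0.10 (SE), and 0.41 with scaling by library total only. Its call was lost without treated 1, without treated 2 and under the replicate block, with limma adjusted p-values up to 0.0577. The difference between both genes was not tested. Trim66, the remaining one, was under the filter and overlapped, at 0.448 to 0.630 FPKM in treated and 0.533 to 0.641 FPKM in control libraries.

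The COS-box class, whose members bind microtubules, had 2 tested genes of 8 and these moved in opposite directions. Trim54, also called MuRF3 and best known from striated muscle, stood at 21.96, 21.5 and 23.0 FPKM in treated libraries, against 8.30, 11.1 and 9.27 FPKM in control libraries. Its means differed 2.32-fold, and the log2 fold change was 1.14 ± 0.13 (SE). Its muscle relatives were scarce, Trim63 (MuRF1) at 0.697, 0.541 and 0.843 FPKM in treated and 0.540, 0.322 and 0.210 FPKM in control libraries, and Trim55 at 0.034 FPKM in treated 3 and listed at 0 elsewhere. An antisense gene, Gm15469, overlaps 26.6% of the exon bases of Trim54 and stood under 0.1 FPKM. Trim46 (ENSMUSG00000042766, chromosome 3, 89234177 to 89246309, minus strand), known for its role at the axon initial segment, had the largest called fall. It stood at 2.36, 2.22 and 2.44 FPKM in treated libraries, against 4.73, 3.93 and 5.60 FPKM in control libraries, which is 2.03-fold lower. Its log2 fold change was -0.78 ± 0.13 (SE), and -0.01 with scaling by library total only. Krtcap2, on the opposite strand, overlaps 6.30% of its exon bases and stood at 63.7, 57.5 and 63.3 FPKM in treated libraries, against 51.6, 148.9 and 16.99 FPKM in control libraries.

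Among the ARF, MATH, filamin and transmembrane members all 5 were tested, 2 were called higher and 3 were not called. Of the 2, Trim45 passed the filter only through the treated libraries. Trim45, the filamin-domain member, stood at 2.61, 2.71 and 2.81 FPKM in treated libraries, against 0.463, 0.352 and 0.462 FPKM in control libraries. The groups were far apart for a gene of this level, 6.36-fold, with a log2 fold change of 1.38 ± 0.09 (SE). Trim23, which has a GTPase domain of the ARF type, stood at 5.26, 5.17 and 5.90 FPKM in treated libraries, against 2.21, 2.00 and 1.26 FPKM in control libraries. Trim37, the MATH-domain member tied to centrosomes and peroxisomes, stood at 4.67, 4.61 and 4.81 FPKM in treated libraries, against 3.08, 2.22 and 4.09 FPKM in control libraries. It was not called (limma adjusted p = 0.0549) although its groups did not overlap. It was called higher in 4 alternatives, which were library totals, sample weights per group, leaving out control 3 and control 2 as the only control. The transmembrane genes Trim59 and Trim13 overlapped between groups. Trim59 stood at 12.0, 12.5 and 14.6 FPKM in treated and 13.5, 10.95 and 13.0 FPKM in control libraries, with a log2 fold change of 0.06 ± 0.13 (SE).

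Of the 6 members with no further C-terminal domain, 2 were tested. Trim56, an antiviral ligase linked to DNA and RNA sensing, stood at 5.42, 5.84 and 5.33 FPKM in treated libraries, against 1.33, 1.37 and 2.18 FPKM in control libraries. Its means differed 3.40-fold, and the log2 fold change was 1.33 ± 0.15 (SE). Trim8, a regulator of NF-kB and STAT3 signalling, stood at 12.0, 12.8 and 11.04 FPKM in treated libraries, against 7.63, 7.26 and 12.2 FPKM in control libraries. Control 3 lay among the treated libraries and Trim8 was not called. It was called higher in 5 alternatives, which were quantile normalization, the correction for GC content, length and level, library totals, leaving out control 3 and control 2 as the only control.

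The other 37 members were under the filter, and Trim9, Trim30c, Trim42 and Trim52 were listed at 0 in every library. The highest value among the 37 was the 1.08 FPKM of Trim12a in treated 3, and 18 of them had at most 20 reads in any library. Of the 33 above 0 somewhere, 13 had every treated library above every control library, beside 18.2% of all 16638 genes of this kind, and Trim7 and Trim36 had every treated library below, beside 3.75%. The 13 were Trim2, Trim5, Trim12a, Trim15, Trim17, Trim43a, Trim43c, Trim62, Trim63, Trim65, Trim69, Trim72 and Trim75. Trim65, which ubiquitinates the RNA sensor MDA5, stood at 0.617, 0.531 and 0.496 FPKM in treated libraries, against 0.190, 0.0536 and 0.189 FPKM in control libraries. Trim69 stood at 0.507, 0.539 and 0.383 FPKM in treated libraries, against 0.135, 0.0334 and 0.0452 FPKM in control libraries, there on 2 to 8 reads. Trim72, a muscle membrane repair gene, stood at 0.438, 0.253 and 0.213 FPKM in treated libraries and was listed at 0 in all controls. Its lowest treated value was 3.71-fold above 3 reads in the control library where they weigh most, 0.0573 FPKM. That ratio allows for counting error in the control zeros only and takes the treated value as exact, so it is not a strict lower limit. An antisense gene, Gm15533, overlaps 27.6% of the exon bases of Trim72 and stood at 0.169, 0.124 and 0.103 FPKM in treated libraries and at 0 in controls. Trim17 stood at 0.0536 to 0.121 FPKM in treated libraries and was also listed at 0 in all controls. The same ratio was 1.56 for Trim17, whose lowest treated value rested on 9 reads. Trim17 shares 16.4% of its stretches with the histone gene Hist3h2a, whose mean was 0.171 FPKM in treated and 0.378 FPKM in control libraries. On the opposite strand 2310058D17Rik overlaps 5.06% of the exon bases of Trim17, with means of 0.750 and 0.0752 FPKM. For Trim43c 38.6% are overlapped on the opposite strand by 9330159M07Rik, with means of 0.365 and 0.0658 FPKM. The values of Trim72, Trim17 and Trim43c are uncertain where strand was not used in counting. For Trim17 this holds also where strand was used, since Hist3h2a lies on the same strand.

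**Figure D3:**
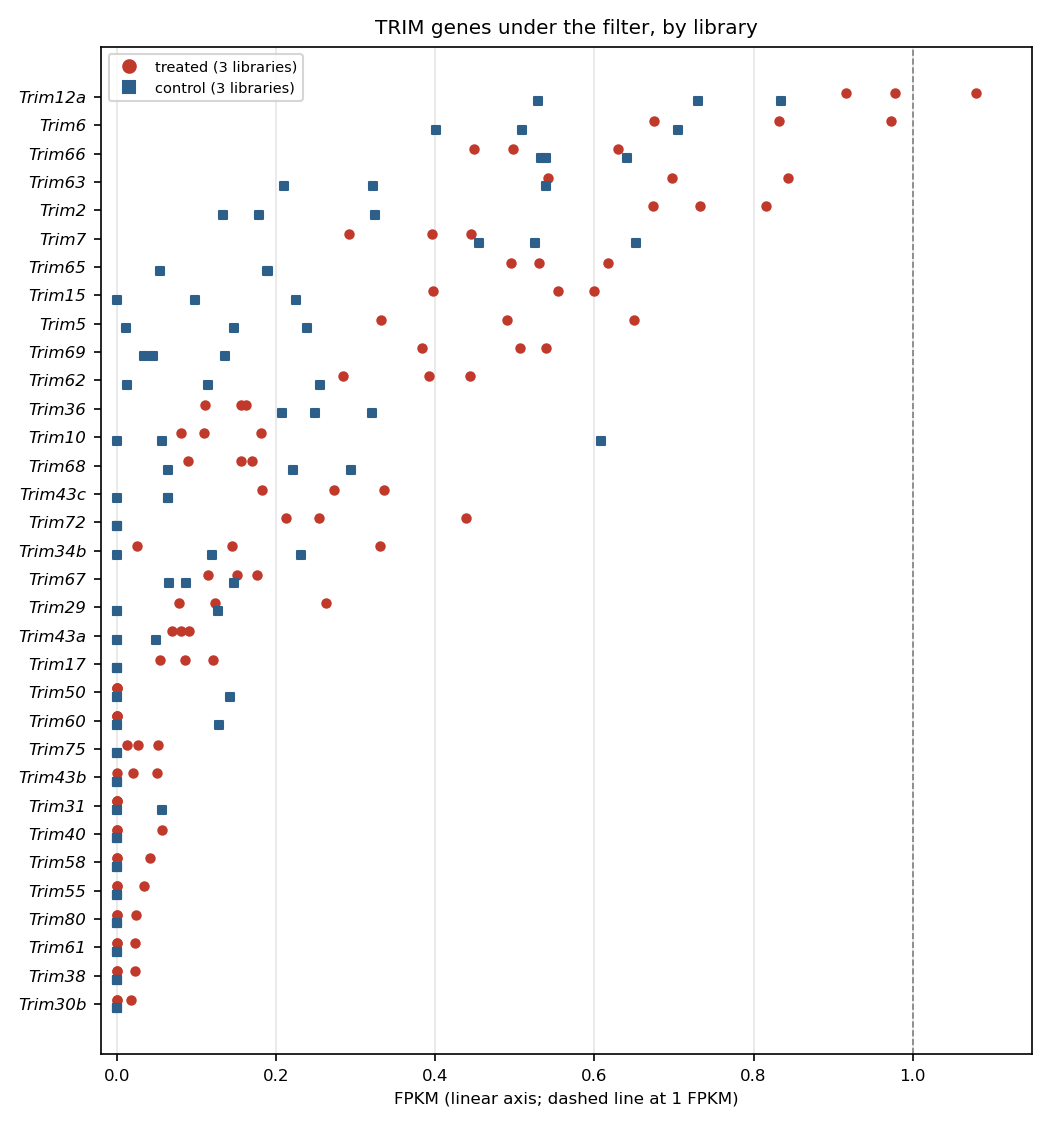
FPKM (linear axis, dashed line at 1 FPKM) of the 33 TRIM genes under the filter that were above 0 in a library, 1 point per library, treated circles above control squares. Trim2 reads 0.674 to 0.816 FPKM in treated and 0.133 to 0.324 FPKM in control libraries, while Trim7 reads 0.292 to 0.445 FPKM in treated and 0.455 to 0.652 FPKM in control libraries.

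Among these scarce genes, those that overlapped between groups included Trim10, Trim31 and Trim40 of the MHC cluster on chromosome 17. Trim10, an erythroid gene, reached 0.608 FPKM in control 3 and stood at 0.0805 to 0.181 FPKM in treated libraries. Trim15, of the same cluster, stood at 0.397, 0.554 and 0.599 FPKM in treated libraries, against 0.0978, 0.225 and 0 FPKM in control libraries. Trim34b, Trim43b, Trim60, Trim61, Trim67, Trim68, Trim38, Trim50, Trim58 and Trim80 overlapped as well, none above 0.330 FPKM.

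Partners of the family were read from lists taken as a whole. Their counts as deposited are to be set beside the shares over all genes tested, 27.9% called higher and 28.3% called lower. Under library totals far more of all genes were called higher than lower, as given above. Of 18 tested genes for ubiquitin and the enzymes that activate it or carry it to ligases, 3 were called higher and 7 lower, with a median log2 fold change of -0.11, but 9 higher and 1 lower with scaling by library total only. Ube2l3, a ubiquitin-conjugating enzyme gene, had the largest rise, with 13.7, 14.5 and 15.4 FPKM in treated libraries against 10.5, 9.36 and 6.44 FPKM in control libraries. Of 18 tested genes of nucleic acid sensing and its adaptors, 12 were called higher and 0 lower, with a median of 0.66, and 18 higher and 0 lower under library totals. Quantile normalization gave 13 higher and 1 lower. Traf6, itself a RING ligase, had the largest rise, at 6.18, 6.04 and 5.87 FPKM in treated libraries against 1.13, 1.1 and 1.44 FPKM in control libraries. Of 13 autophagy partners 3 were called higher and 2 lower, with a median of 0.04, but 10 higher and 1 lower under library totals. Tax1bp1, an autophagy receptor gene, had the largest rise, with 14.5, 14.2 and 15.8 FPKM in treated libraries against 9.65, 10.1 and 7.58 FPKM in control libraries. Gabarap, of the ATG8 family, had the largest fall, with 183, 191.3 and 189.5 FPKM in treated libraries against 520.8, 527.2 and 597.4 FPKM in control libraries. As another named family of RING proteins, 57 of 85 protein-coding Rnf genes were tested, of which 17 were called higher and 13 lower, with a median of 0.10, but 44 of 58 higher and 1 lower under library totals. Rnf135, which like Trim25 acts on RIG-I, had the largest rise, with a log2 fold change of 1.20 ± 0.11 (SE), and Rnf114 the largest fall, with -1.69 ± 0.22 (SE). No test of the difference between these lists and the TRIM genes was made.

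**Figure D4:**
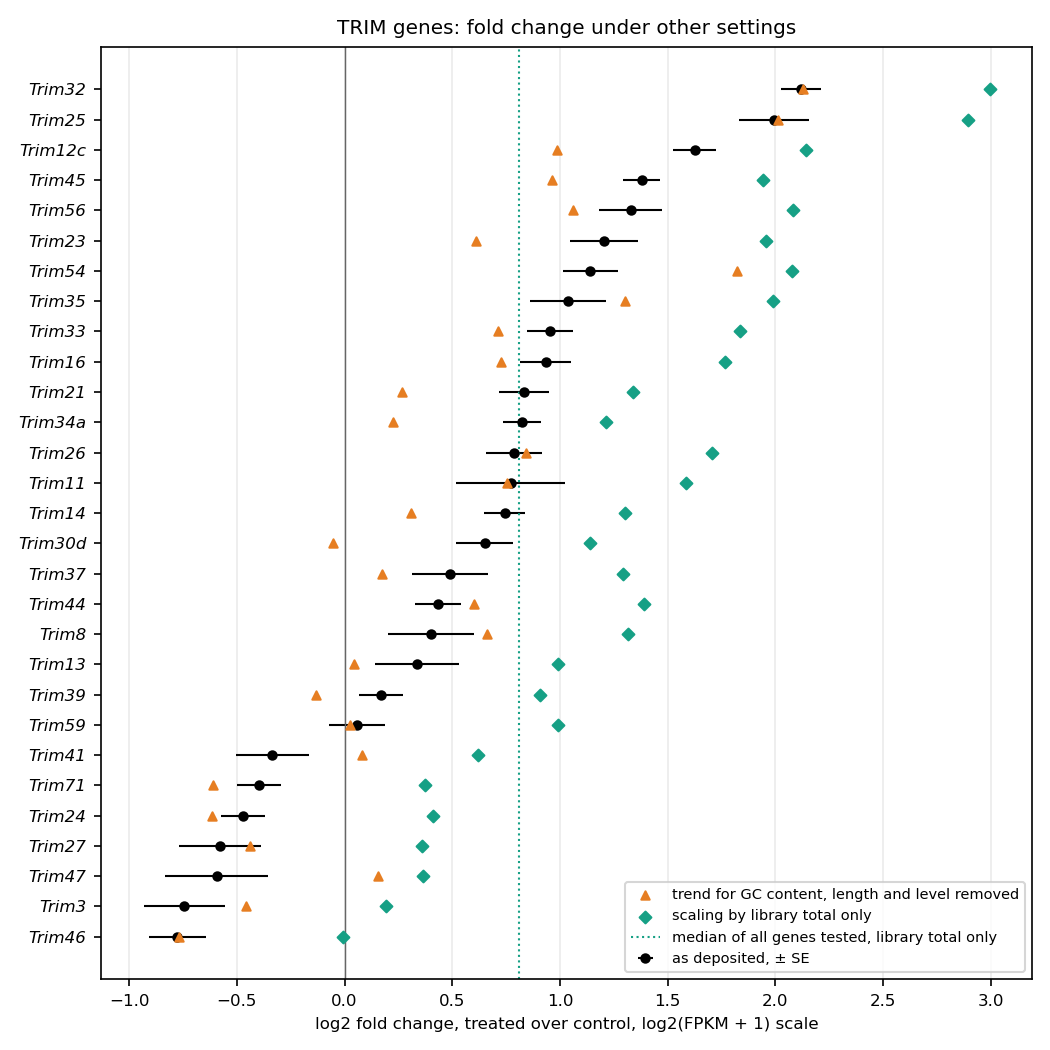
Log2 fold change of the 29 tested TRIM genes (treated over control, log2(FPKM + 1) scale) as deposited with SE bars, corrected for GC content, length and level, and with scaling by library total only (dotted line at 0.81, the median of all genes tested under it). Trim32 and Trim25 lead in all 3 settings, and Trim3, Trim24, Trim27, Trim41, Trim47 and Trim71 are positive under library total scaling while below 0 as deposited.

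With GC content, length and level corrected for in each library, 15 of the 29 members were called higher and 3 lower, and the median log2 fold change was 0.31. Trim12c, Trim16, Trim23, Trim25, Trim26, Trim32, Trim33, Trim34a, Trim35, Trim45, Trim54 and Trim56 were called higher in each alternative in which they were tested. Trim46, Trim24 and Trim71 were the falls still called under that correction.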

How the data were processed

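The members and gene lists were chosen with earlier results of these data known. The authors deposited 1 FPKM value per gene and library, per the file headers. Per the labels' protocols, RNA was selected on poly-T beads and read from both ends over 150 bp; the aligner, counter, strand setting, build and annotation were not given in the sources used here. GENCODE M21 (GRCm38) gave symbols for 52125 of 56748 identifiers. With its exon lengths, 92.3% to 93.4% of values under 200 reads were whole multiples of 1 read within 0.02. Genes that reached 1 FPKM in at least 3 of 6 libraries were tested on log2(FPKM + 1), which understates folds of scarce genes, with limma 3.58.1 (R 4.3.3, trended prior variance, group as the only term) and Benjamini-Hochberg adjustment over all 11118. On simulated data for this comparison (11118 genes, 200 changed, 5 runs) the share called was 55.0% for a log2 change of 1 and 86.0% for a log2 change of 2, and 6.24% of calls were false. The simulation changed far fewer genes than were called here (3099 higher and 3141 lower). It also gave both groups the same spread, unlike these libraries, so its rates do not carry over to this comparison. Values per library were given for called members at 2-fold or more and for the most abundant member of each class; those of other members were added after seeing them. Promoters came from RefSeq (GRCm38.p6). Pseudocount, filter, scaling, gene properties, sample weights, replicate block and single libraries were varied.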

Additional observations from a re-analysis of the deposited data

How the results depend on the processing

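The 12 members named above were picked as called higher in every alternative that tested them, so their unchanged direction follows from that choice. Among them Trim12c and Trim45 were tested in 15 and Trim34a in 14 of the 16 alternatives. These 3 passed the filter only through the treated libraries. The number of members called higher was 17; it was 10 with a minimum of 5 FPKM and 28 with scaling by library total only, and between 15 and 19 with 1 library left out. The number called lower was 5; it was 3 with a 5 FPKM minimum, 3 under quantile normalization, 3 once GC content, length and level were corrected for, 0 with scaling by library total only, and between 1 and 7 with 1 library left out, with 3 without control 1, 1 without treated 1, 1 without treated 2 and 2 without treated 3. The median log2 fold change of the tested members was 0.74; it was 0.95 with a pseudocount of 0.1, 0.20 with no filter on low values, 1.30 with scaling by library total only, 0.45 with quantile normalization and 0.31 with that correction. All genes called higher numbered 1385 with a minimum of 5 FPKM and 7641 with scaling by library total only, which called 699 lower.

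Signs turned with scaling by library total only for Trim47 (0.36), Trim27 (0.36), Trim24 (0.41), Trim3 (0.19), Trim41 (0.62) and Trim71 (0.37), against a median of 0.81 over all genes. With quantile normalization they turned for Trim41 (0.0077) and Trim39 (-0.084), and with the correction for GC content, length and level for Trim47 (0.16), Trim41 (0.082), Trim39 (-0.13) and Trim30d (-0.054). Trim59 turned without control 2 (-0.026) and without treated 3 (-0.021), with a range of -0.026 to 0.113 over the fits that left out 1 library and up to 0.99 with scaling by library total only. Apart from the scaling itself, the cause was not tested.

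Same-numbered samples did not deviate together (r of -0.05, -0.11 and -0.14 across genes, with 0 of 6 libraries closest to their own number), so the numbers do not pair them; with a replicate block 15 members were called higher and 2 lower. Among alternatives chosen after seeing the data, a mean of 1 FPKM over all libraries gave 15 higher and 5 lower, and control 2 alone as the control gave 19 and 5. Members under about 20 reads a library are limited by depth.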
